A study of Sus scrofa with 150 samples.

Results

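The cytosolic ribosomal proteins are the protein part of the ribosome, and 93 probe sets for 61 of their gene symbols were followed over 150 pig livers. Members were chosen by gene name alone: RPSA, RPLP0, RPLP1, RPLP2 and every symbol that begins with RPL or RPS followed by a digit, without the RPS6 kinases and without paralogs whose names end in L and a digit. They were 93 of the 23999 probe sets tested, and 61 of the 6765 gene symbols that stood alone on a probe set. The large subunit had 56 probe sets for 35 symbols and the small subunit 37 for 26. Most symbols (37) had 1 probe set, 16 had 2 and 8 had 3. The rule took in 3 symbols that are not classical ribosomal proteins: RPS19BP1, a protein that binds RPS19, and the paralogs RPS27L and RPL36AL. It left out 6 symbols by name, and 8 probe sets whose annotation joins RPL10, RPL36, RPL35A or RPS15 to an unrelated gene.

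The livers came from 150 commercial pigs of the cross Pix(DLxDE), taken at slaughter at an average end weight of 110 kg, with 1 Affymetrix Porcine Genome Array per pig. The labels name neither a treatment nor a control, so all pigs formed 1 group, and they give no sex, age, family or array batch. Fat area on the long back muscle averaged 15.2 cm2 (SD 3.25, n = 150), and drip loss, the weight that a hung piece of this muscle loses, averaged 5.54% (SD 2.12, n = 150). Each probe set, a group of short probes for a transcript, had a log2 value per liver.

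A ribosome has a small subunit, which reads the mRNA, and a large subunit, which joins amino acids. Its proteins are needed in largely equal numbers, and in mammals their mRNAs share a terminal oligopyrimidine (TOP) start through which growth signals control their translation as a group. Liver makes most of the proteins of blood plasma and keeps a large stock of ribosomes.

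The tissue label was checked against its markers. Of 11 hepatocyte genes 10 were measured, and their 11 probe sets had medians from 12.4 to 13.9. Muscle genes were near the table's lowest value of 4.09, with 4 of 5 measured symbols within 1 log2 unit of it. Array medians ran from 5.79 to 6.09. In 13 livers the array correlated with the others less well than in the rest (more than 3 median absolute deviations below the median), and the mean of the bright ribosomal probe sets ran from 12.16 over a median of 12.34 to 12.63 in these and from 12.06 over 12.47 to 12.72 in the others. In whole tissue, fewer cells of a type and less RNA per cell cannot be told apart.

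Most ribosomal genes were among the brightest of the liver. Medians of 58 of the 93 probe sets lay above 11, a level that 2.13% of all tested probe sets passed, and these 58 covered 54 of the 61 symbols. The value of 11 was placed after the levels were seen, in the gap between 10.95 and 11.59 where no ribosomal median fell, and these 58 are called bright here. Probe sets differ in their probes, so an order of brightness is not an order of mRNA amounts.

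In the small subunit, RPS29, a zinc-binding protein, had the highest median of all members, 13.28, with a lowest value of 12.93 and a highest of 13.43. RPS2, which lies at the mRNA entry of the small subunit, ran from 12.56 over a median of 13.23 to 13.46. RPSA, also known as a precursor of the laminin receptor, ran from 12.08 over 12.73 to 13.04. For RPS6, the substrate of the S6 kinases, the brighter of the 2 probe sets ran from 11.47 over 12.30 to 12.80. All 4 stayed far above the lowest value of the table in every liver.

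In the large subunit, RPL27A was brightest, from 12.63 over 13.21 to 13.48. RPL3, which reaches towards the site where the peptide bond is made, ran from 11.32 over 11.88 to 12.34. The stalk, which recruits elongation factors to the ribosome, is built of RPLP0 and pairs of RPLP1 and RPLP2. RPLP0 ran from 12.46 over 13.13 to 13.38, RPLP1 from 11.43 over 12.03 to 12.45, and RPLP2 from 10.93 over 11.59 to 12.20. RPL41 had no probe set under that name.

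Only 7 symbols lacked a bright probe set. RPL36AL reached a median of 10.95 and RPS27L 10.01, RPS19BP1 8.49 and RPL37 7.48. RPL26 (5.31), RPS15A (5.30) and RPL30 (4.41) were dim in every liver, with highest values of 5.65, 5.77 and 5.18. The dimmest probe sets of all were 2 for RPS25, with medians of 4.38 and 4.74, that of RPL30, and the second for RPL34, with 4.75. These 4 held values at the lowest value of the table, where livers have no order, and RPS25 and RPL34 each had a bright probe set as well, with medians of 12.43 and 12.14.

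**Figure D1:**
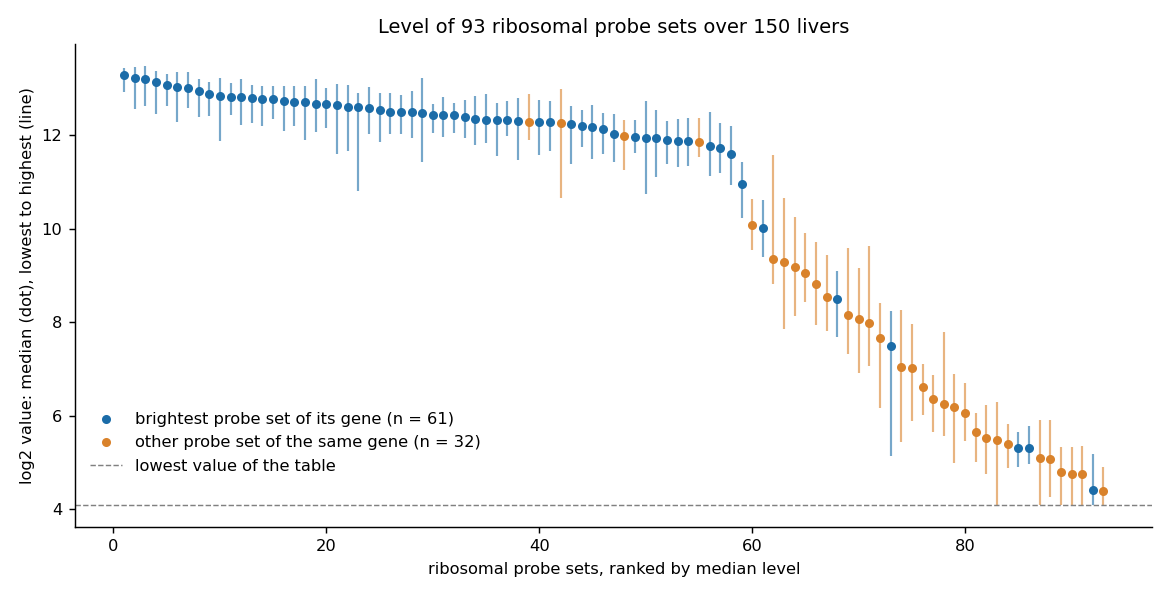
Log2 value of each of the 93 ribosomal probe sets over 150 livers, ranked by median; dots are medians, lines run from the lowest to the highest liver, and the dashed line is the table's lowest value, 4.09. The 61 probe sets that are the brightest of their gene (blue) mostly lie above 11, while most of the 32 others (orange) lie below.

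Bright ribosomal probe sets varied little between pigs. Their SD over the livers had a median of 0.179 (lowest 0.107, highest 0.355), against 0.246 for the 452 other probe sets with medians above 11. These others were not matched in brightness. Of probe sets within 0.25 log2 units of a bright member's median, members included, a median of 24.6% had a smaller SD than it. That share ran from 0% for RPL19 to 73.8% for the second bright probe set of RPS18. RPS29 had the smallest SD of all members, 0.107. RPL19 followed with 0.125 and RPL24, by its bright probe set, with 0.130. The largest SDs were those of dimmer probe sets of RPL38 (0.63), RPS27 (0.61) and RPL23 (0.39), followed by the second bright probe set of RPS18 (0.36) and a dimmer one of RPL32 (0.35). The mean of the 58 bright probe sets differed 1.58-fold between the lowest liver (12.06) and the highest (12.72), with an SD of 0.126 (n = 150). The mean of all 93 correlated at r = 0.32 with an array's median correlation with the other arrays and at -0.26 with the GAPDH 3′ to 5′ difference, and the part of either was not tested.

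Levels of the bright ribosomal probe sets were correlated from pig to pig. Between bright probe sets of different genes the correlation over the 150 livers had a median of 0.489 over 1648 pairs, and 94.6% of the pairs were positive. The same median was 0.0712 among the 452 other bright probe sets. It was 0.414 with the brightest probe set of each of the 61 genes, 0.177 over all 93, and 0.0243 among the 35 dimmer ones. With 1 probe set per gene, a single component held 45.8% of the variance and the next 15.5%. All these points share their arrays, so they are descriptions without a p-value.

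RPL32 correlated best with the mean of the members of all other genes, at r = 0.87, and ran from 12.34 over 12.77 to 13.06. RPL14 followed with 0.86, then RPS19, a gene mutated in the inherited Diamond-Blackfan anaemia, with 0.83, RPS15 with 0.81 and RPL11 with 0.80. RPL11 is part of the particle that carries 5S rRNA into the large subunit. Of the 58 bright probe sets 48 passed r = 0.5, and all 58 were positive.

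The lowest r, all below zero, belonged to probe sets that are not bright: RPL7 (r = -0.26), the second RPLP0 probe set (-0.19), RPS25 (-0.18), RPL30 (-0.15) and RPL34 (-0.08). Of these 5, only that of RPLP0 (median 8.81) had a median above 5.07. Of all 93 members 85 were positive, and the other members below zero were probe sets of RPS13 (-0.06), RPL37 (-0.02) and RPL23 (-0.02). The bright RPL7 probe set had the lowest r of all bright ones, 0.13, and spread from 10.81 to 12.91. Without the 13 livers whose arrays stood apart, the median between bright probe sets was 0.49. It was 0.50 within blocks of title numbers (numbers of unstated meaning in the sample titles) and also 0.50 after removal of the control 3′ to 5′ differences described with the RNA integrity results.

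**Figure D2:**
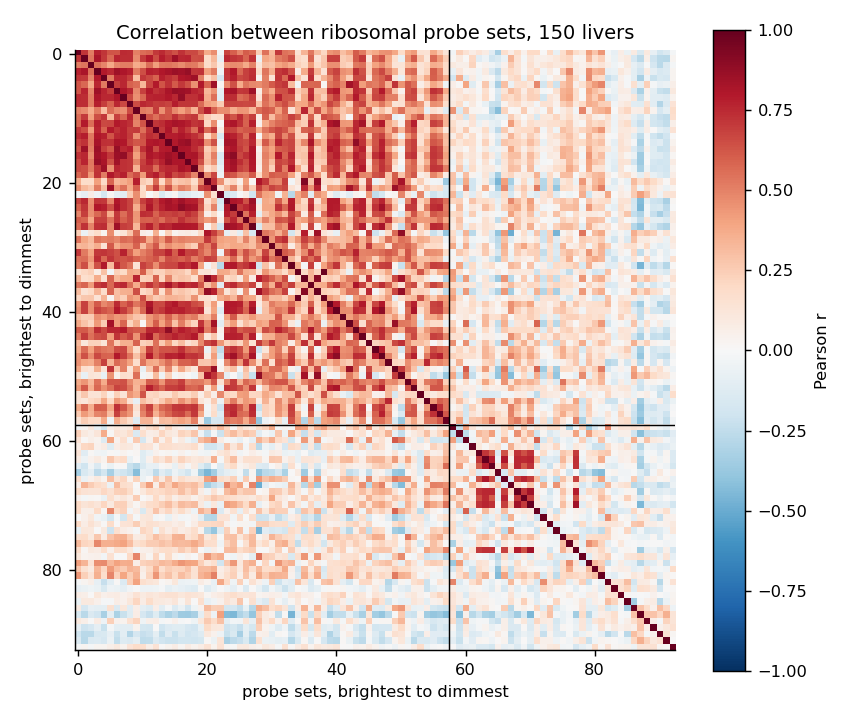
Pearson correlation over 150 livers between the 93 ribosomal probe sets, in order of brightness on both axes, with black lines at the median of 11. The 58 bright probe sets form a mostly red square (median r of 0.489 between genes). Between ranks 63 and 78 lie 8 dimmer probe sets that correlate with each other (r from 0.607 to 0.841), with others between them.

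Bright probe sets differed in how they went with the brightness of the whole array: the correlation with the array median was positive in 25 of the 58 and negative in 33. RPL5, the partner of RPL11 in the 5S particle, correlated with the array median at r = 0.60, RPL4, which lines the exit tunnel, at 0.60, RPS24 at 0.57, RPS3A at 0.53 and RPS6 at 0.52. RPL6 (0.50), RPL17 (0.47) and RPL22 (0.41) also passed 0.4, a limit set after the values were seen that 15.9% of the other bright probe sets and 22.2% of all probe sets passed, so these 8 of 58 are no more than the background. At the other end stood RPLP2 (-0.46) and RPS27 (-0.40). Between different genes, the median r was 0.765 among the 8 above 0.4 and 0.553 among the other 50 bright probe sets. Across these groups, formed after the values were seen, it was 0.253. The part of array brightness in these correlations was not tested further. With the array median removed, the median over all 93 was 0.185.

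Probe sets for the same gene often differed in their pattern over the livers. The 24 genes with several probe sets gave 40 pairs, with a median gap of 4.61 log2 units in level. Pearson's r passed an adjusted p of 0.05 by permutation in 21 pairs with a positive sign and in 1 with a negative sign. These tests used 100000 resamples, with Benjamini-Hochberg over the 40 pairs. They ask only whether a pair correlates at all, and probe sets of different genes on these shared arrays did so too. The median r was 0.191 over the 40 pairs and 0.177 between members of different genes. In the 5 pairs with both members bright, r ran from 0.470 to 0.985, beside a median of 0.489 between bright probe sets of different genes. In the 29 pairs with only 1 bright, it ran from -0.262 to 0.533 with a median of 0.157.

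The best pair was RPL31, with r = 0.98 and rho = 0.98 (permutation p = 1e-05, the smallest these resamples can give; adjusted p = 3.08e-05). The name endings of its probe sets differ only in the suffix. No probe sequences were at hand, so whether they share probes was not checked. For RPS18 the best pair had r = 0.90 and rho = 0.88, for RPL27 r = 0.76 and rho = 0.73, and for RPL12 r = 0.53 and rho = 0.52, each with the same adjusted p; without the 2 farthest livers these pairs kept r of at least 0.507. RPLP0 was the exception in sign, with r = -0.26 and rho = -0.25 (permutation, adjusted p = 0.00318 for r), and r = -0.23 without the 2 farthest livers. Its second probe set ran from 7.93 over 8.81 to 9.71. RPL23 (r = -0.12, adjusted p = 0.193), RPS25 (-0.10, 0.302) and RPS13 (-0.05, 0.703) had the next lowest r by the same permutation test.

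In 8 genes, both probe sets carry the same name stem with opposite tags, A in one name and S in the other, whose meaning is not given in the sources used here: RPL32, RPL17, RPL12, RPL13A, RPL23, RPL6, RPL24 and RPS6. The brighter partner carried A in 5 and S in 3, and the gap ran from 3.15 to 6.55 log2 units. The 8 dimmer partners followed each other across genes, with r from 0.607 to 0.841 (median 0.722 over 28 pairs). With the brighter probe set of their own gene they correlated from -0.124 to 0.434, with a median of 0.284.

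The dimmer RPL32 probe set ran from 7.07 over 7.97 to 9.62 and that of RPL12 from 7.31 over 8.15 to 9.59. The liver numbered 17 in order of deposit was highest in 5 of the 8 dimmer partners, while the brighter partners of those 5 genes lay on both sides of their medians there. RPL32 was at 12.69 (median 12.77), RPL13A at 12.62 (12.81) and RPL24 at 12.43 (12.44), and RPL12 at 11.98 (11.91) and RPL6 at 12.34 (12.32). Without this liver and the next, the 2 farthest from the median of the 8 together, the median correlation was 0.663. The mean of the 8 correlated at 0.53 to 0.58 with the BioB control probe sets, a bacterial RNA added at hybridisation. With the other added controls it correlated at 0.36 and 0.47 (BioC), 0.18 and 0.17 (BioDn) and -0.07 and -0.004 (CreX). Its r with the mean of the bright ribosomal probe sets was 0.24. After removal of the BioB values, the median among the 8 was 0.632.

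The pattern reached beyond probe sets annotated as ribosomal. The table held 427 pairs of this naming, and 9 other pairs had a bright partner and a gap above 3. Their dimmer partners correlated with the mean of the 8 at r from 0.168 to 0.880, with a median of 0.509. That annotated as ZC3H10, a zinc finger protein, was highest and that of IGFBP1 lowest. The bright ZC3H10 probe set correlated at 0.80 with the mean of the bright ribosomal probe sets. Its annotation was not checked against a sequence. The next highest (0.821) had no symbol, and TMSB10 (0.703) and APOE (0.647) followed. In 384 pairs whose brighter partner had a median below 8, the median r was 0.0247. These pairs were looked at after the correlations were seen, so they are a description, and what the dimmer partners detect was not tested.

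**Figure D3:**
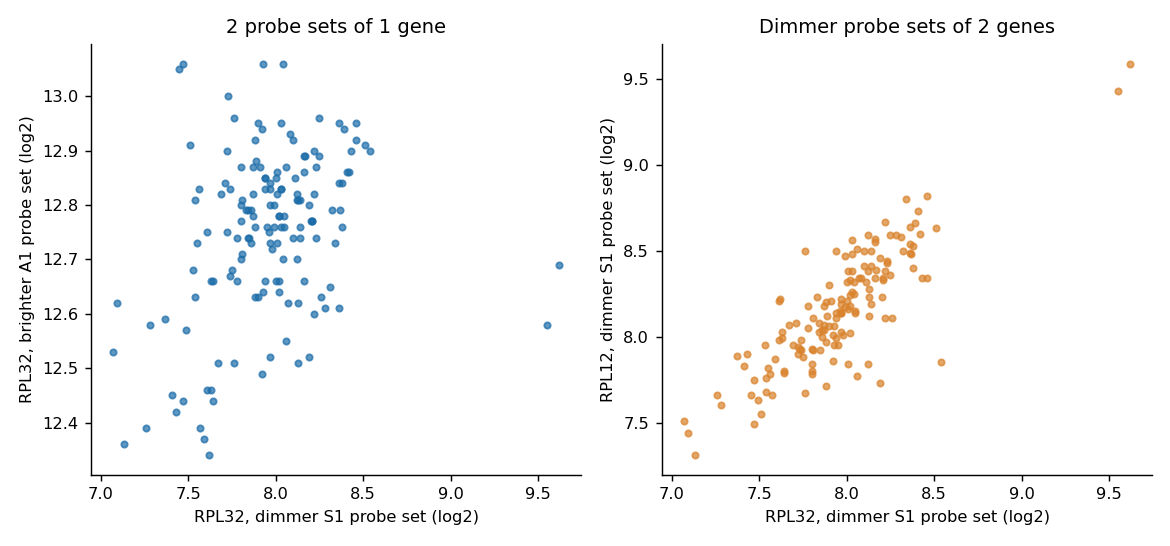
Log2 values of 150 livers, 1 dot per liver. Left: the brighter RPL32 probe set against the dimmer one of the same gene (r = 0.31). Right: the dimmer RPL12 probe set against the dimmer RPL32 probe set, along a common slope, with 2 livers at the upper right.

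RPL38, a large subunit protein with a known role in body patterning of mouse embryos, had a probe set with separate ranges. Its dimmer probe set lay between 10.48 and 11.57 in 23 livers and between 8.82 and 10.03 in all others, with an empty gap of 0.45. No other member had a gap above 0.4 with at least 5 livers on each side, and 0.458% of all probe sets did. The bright RPL38 probe set ran from 12.09 over 12.42 to 12.56 in the 23 livers and from 12.05 over 12.43 to 12.69 in the others, a range that holds the first in full. Within the lower range both probe sets correlated at r = 0.08 and within the upper range at -0.12 (permutation, adjusted p = 0.589 for both). What sets these ranges was not tested.

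**Figure D4:**
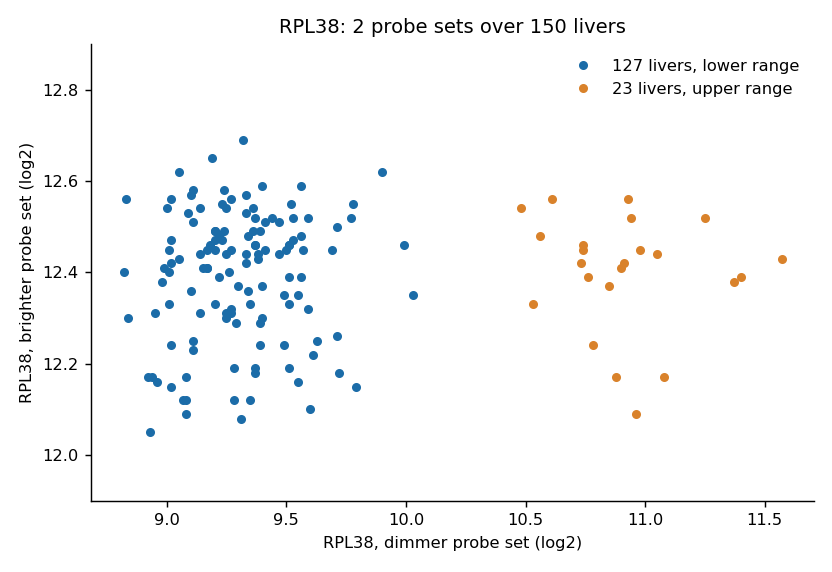
Bright RPL38 probe set (vertical, log2) against the dimmer one (horizontal, log2), 1 dot per liver. On the horizontal axis 23 livers (orange) lie from 10.48 on and the others (blue) up to 10.03, while their heights overlap.

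No ribosomal probe set passed the test with fat area, which at the low share called over all probe sets is no result about the members. The slope, in log2 units per SD of the trait, passed an adjusted p of 0.05 in 0 of 93 members (limma, Benjamini-Hochberg over all 23999), against 0.125% of all probe sets (0.0792% higher and 0.0458% lower). Without adjustment, 4 of 93 had a p under 0.05, or 4.3% against 7.08% of all. Slopes were negative in 69 and positive in 24, against 11889 negative of all 23999. Among bright probe sets they were negative in 48 of 58 members and in 239 of all 510. The members share their livers and correlate with each other, so these signs are not independent. The mean of all 93 correlated with fat area at r = -0.09. The members' median slope was -0.01, and their 95% intervals lay within -0.10 and 0.12. With the level of the 1 Y-linked probe set found as a covariate, the median slope moved from -0.0098 to -0.0030. The labels give no sex, and how well this level marks it was not tested.

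The smallest p was that of RPL7, a large subunit protein whose bright probe set averaged 12.42 (SD 0.37) in the 30 livers of largest fat area and 12.60 (SD 0.20) in the 30 of smallest. Its slope was -0.06 (SE 0.020; limma adjusted p = 0.395). RPS25 (-0.03, adjusted p = 0.680) and RPL21 (-0.03, 0.701) followed in limma. On the positive side stood dimmer probe sets of RPS28 (0.04, adjusted p = 0.621), RPL9 (0.04, 0.887) and RPL27 (0.01, 0.969).

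Drip loss gave the same count, 0 of 93 by limma, and 0% of all probe sets passed. Without adjustment 12 of 93 had a p under 0.05, or 12.9% against 11% of all. Slopes were positive in 59 of 93 members, in 13560 of all 23999 and in 310 of the 510 bright probe sets. Here too the signs are not independent, and the mean of all 93 correlated with drip loss at r = 0.05. The median slope was 0.0064, and -0.0066 after quantile normalization. The smallest p was that of RPS6, which averaged 12.36 (SD 0.19) in the 30 livers of highest drip loss and 12.21 (SD 0.27) in the 30 of lowest, with a slope of 0.05 (SE 0.018; limma adjusted p = 0.314). RPL5 (slope 0.07, adjusted p = 0.329) and RPL17 (0.05, 0.331) followed, both among the 8 whose r with the array median passed 0.4. With the array median as a covariate the 3 slopes were 0.04, 0.05 and 0.04 (limma adjusted p from 0.757 to 0.759). Among negative slopes the smallest p were those of RPS19BP1 (-0.06, adjusted p = 0.358) and the dim probe sets of RPL30 (-0.03, 0.464) and RPL37 (-0.05, 0.470).

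**Figure D5:**
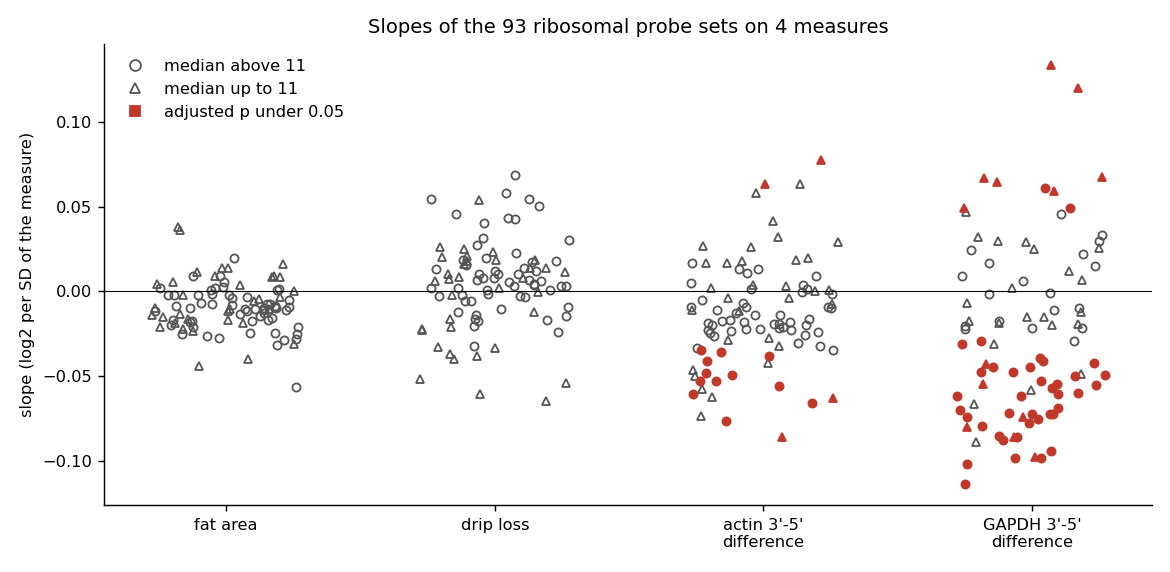
Slope of each of the 93 ribosomal probe sets, in log2 units per SD of the measure, for 4 measures; circles have medians above 11 and triangles do not, and red marks a limma adjusted p under 0.05. None is red for fat area or drip loss, 16 are for the actin and 52 for the GAPDH difference, most of them below 0.

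Many levels moved with a sign of RNA integrity. With both directions pooled the share was near that of all probe sets, but members mostly fell. Control probe sets at the 3′ and 5′ ends of GAPDH and actin gave a log2 difference per liver, which grows as RNA is broken or copied only in part; the mean over the 150 livers was 0.921 (SD 0.258) with GAPDH and 2.86 (SD 0.451) with actin. With a larger GAPDH difference 43 members fell and 9 rose by limma, 55.9% of them against 53.4% of all probe sets. Over all probe sets, 24.1% fell and 29.3% rose. Falls thus outnumbered rises among the members, and rises outnumbered falls over all probe sets. Of the 58 bright members 37 fell and 2 rose, 67.2% in either direction. Of all 510 bright probe sets 211 fell and 64 rose, 53.9% in either direction.

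RPS27 fell most clearly with the GAPDH difference. Its bright probe set ran from 12.02 over 12.51 to 12.90 and its slope was -0.10 (SE 0.013; limma adjusted p = 2.39e-11). RPL8, which ran from 11.78 over 12.34 to 12.84, had a slope of -0.11, RPL15 of -0.10, RPS13 of -0.07, RPL35 of -0.09 and RPS4X, the X-linked form of RPS4, of -0.09, with limma adjusted p up to 2.52e-08. Those that rose with the smallest p were all dim: RPL7 (slope 0.13, median 5.07), RPS27A (0.12, 5.09), RPL34 (0.07, 4.75), RPL30 (0.07, 4.41), RPS25 (0.06, 4.74) and RPL12 (0.06, 6.62), with limma adjusted p from 8.78e-07 to 0.00427. The calls of RPS27A, RPL30 and RPS25 were lost with the array median as a covariate (adjusted p = 0.475, 0.115 and 0.0890), that of RPS25 also without the 13 livers that stood apart (0.0986), and that of RPL12 after quantile normalization (0.408).

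With a larger actin difference 14 members fell and 2 rose by limma, 17.2% of them against 13.5% of all; 7.75% of all probe sets fell and 5.79% rose. RPL27 had the smallest p, with values from 11.61 over 11.96 to 12.32, a slope of -0.08 (SE 0.011) and an adjusted p of 1.84e-08, and its second bright probe set had a slope of -0.05 (0.00157). Both brighter RPS28 probe sets fell (-0.09 and -0.05, limma adjusted p = 2.27e-05 and 0.00137), as did RPLP2 (-0.07, 0.00518) and RPS12 (-0.05, 0.00550). Dim probe sets of RPL9 (0.08, adjusted p = 0.00972) and RPL12 (0.06, 0.0108) rose. Without the 13 livers that stood apart 7 fell and 1 rose. In these livers the calls of RPLP2 (adjusted p = 0.0925) and RPL12 (0.0622) were lost, and quantile normalization ended those of RPLP2 (0.0753) and the second RPL27 probe set (0.0595).

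Across 10 blocks of title numbers, 18 of 93 members differed (limma F test, adjusted p under 0.05), 19.4% against 14.9% of all; among bright probe sets the shares were 22.4% of the members and 22.7% of all 510. RPL22, a large subunit protein that ran from 11.39 over 12.23 to 12.63, had the most variance between blocks, 25.4%, with block means from 11.87 to 12.30 (adjusted p = 0.000547). The dimmer RPL38 probe set followed with 23.6%, and the share of its upper range went from 0 of 23 livers in a block to 5 of 10 in another. RPS24 held 21.7%, RPS20 19.9% and RPL23 19.1%. Whether the blocks stand for time, herd or processing is not given in the labels.

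Other genes of translation were among those most like the ribosomal mean (the mean of all 93). Of the 10 other genes with the highest r, 4 belong to translation: FAU, whose product is cut to give RPS30 (r = 0.78), RACK1, a scaffold on the small subunit (0.71), and the elongation factor subunits EEF1B2 (0.67) and EEF1G (0.62). A probe set for B2M, which encodes the small chain of class I MHC molecules, had the highest r of all, 0.85, while the other 8 probe sets of that gene lay between -0.094 and 0.254. The other 4 probe sets of FAU lay between -0.038 and 0.153, and the other one of RACK1 was at -0.080. ZC3H10 (0.74), LOC100525692 (0.69), RAN, a GTPase of nuclear transport (0.66), and the ATP synthase subunits ATP5L (0.65) and ATP5E (0.61) completed the 10. Other probe sets of RAN lay between -0.274 and 0.413 and those of ATP5L between -0.073 and 0.013, and the other one of ZC3H10 was at 0.355. At the negative end were CUL4A (-0.46), HIST1H2BD (-0.42), NCOR1 (-0.41), MUT (-0.40) and PLBD1 (-0.39). There too the other probe sets differed, at -0.104 for CUL4A and -0.093 for HIST1H2BD. Those of NCOR1 lay between -0.215 and 0.119 and those of PLBD1 between -0.069 and 0.322, while MUT had 1 probe set. Of the probe sets that are not members, 69, or 0.289%, passed r = 0.5.

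The wider translation machinery was set beside that mean by lists. The summed level of 28 probe sets for elongation factors and other TOP mRNAs correlated with it at r = 0.67, that of 77 probe sets for mitochondrial ribosomal proteins at 0.30, that of 31 for ribosome assembly at 0.14 and that of 17 for growth control at -0.03. A sum follows its brightest probe sets: the median r of single probe sets was 0.14 in the TOP list (from -0.11 to 0.78), 0.16 in the mitochondrial list, 0.09 in ribosome assembly and 0.01 in growth control. Among the mitochondrial ribosomal proteins, pairs of different genes had a median r of 0.177. In none of these 4 lists did a probe set pass limma's adjusted p of 0.05 with fat area or drip loss. With the GAPDH difference, with which 24.1% of all probe sets fell and 29.3% rose, 11 of the 28 fell and 4 rose, among them EIF3K (-0.12) and PABPC1, the poly(A)-binding protein (0.23). Of the 77, 48 fell and 8 rose, among them MRPL2 (-0.24) and MRPL53 (-0.17). In ribosome assembly 13 fell and 9 rose, with BYSL at -0.20 and NOP58, a core protein of small nucleolar particles, at 0.31. In growth control 4 fell and 6 rose, with EIF4EBP2 at -0.10 and LARP4 at 0.34. These lists overlap in function, and the TOP list holds FAU and RACK1, which sit in the ribosome itself.

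Summed markers of other cell types had r between 0.01 and 0.14 with the ribosomal mean: T and NK cells 0.14, B and plasma cells 0.06, macrophages 0.07, neutrophils 0.12, red blood cells 0.01, endothelium 0.01 and stellate cells and fibroblasts 0.09. The hepatocyte markers had 0.35. Their summed level ran from 16.77 to 17.02, and 7 of the 11 probe sets had a positive r with the ribosomal mean, with a median of 0.22. TF, transferrin, and APOA1, the main protein of high-density lipoprotein, were highest with 0.47, and ALB, albumin, was lowest with -0.12. The 5 control probe sets for 18S, 28S and 5S rRNA correlated with the ribosomal mean between 0.01 and 0.11. The part of cell make-up in the shared variation was not tested.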

How the data were processed

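Values are log2 per probe set, as deposited by the authors; the scale was read from the values. The submitters' processing notes name GCOS 1.1.1, while for the summary and normalization methods the sources used here name none. No value lay below 4.09, where changes are understated. Of 24123 probe sets, 124 controls were left out. Symbols came from the array's annotation (10069 probe sets with 1 symbol, 198 with several, 13732 with none); all 93 members matched the Sscrofa11.1 gene table by Entrez ID. Slopes per SD of each measure were fitted over all 23999 probe sets with limma 3.58.1 (lmFit, eBayes with trend) in R 4.3.3, two-sided, with Benjamini-Hochberg adjustment. When 200 changed probe sets were simulated, the fit recovered 51% (fat area) and 53.5% (drip loss) at a correlation of 0.3, and 96% of both at 0.4. Correlations used Python 3.11.15, NumPy 2.4.6 and SciPy 1.17.1.

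Pigs were numbered in order of deposit. P-values measure the spread between these pigs, and the number of arrays limits the precision. Members, gene lists and tests were chosen with earlier results of these data known. Named genes were, per measure, the smallest p in each direction (at most 6 called members, or 3 where fewer than 3 were called); the 4 brightest and 4 dimmest; extremes of SD and of correlation with the other genes; the best and worst pairs within a gene; and the 10 most and 5 least similar other genes. Alternatives included quantile normalization, leaving out dim probe sets or those with an SD up to 0.25, eBayes settings, covariates and leaving out livers.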

Additional observations from a re-analysis of the deposited data

How the results depend on the processing

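The counts for fat area and drip loss stayed at 0 under every alternative run: quantile normalization, dim or flat probe sets left out, other eBayes settings, normal scores, 4 covariates, without the 13 livers that stood apart, an adjusted p under 0.10, and without RPS19BP1, RPS27L and RPL36AL. No slope of a named probe set reversed its sign. The median slope on drip loss, 0.0064, was -0.0066 after quantile normalization. With the actin difference, 14 fell and 2 rose; 7 fell after quantile normalization, 1 fell and 1 rose among the 26 members with an SD above 0.25, 7 fell and 1 rose without the livers that stood apart, and 5 rose at an adjusted p under 0.10. With the GAPDH difference, 43 fell and 9 rose; 4 rose with dim probe sets left out, 5 fell and 5 rose among the 26 with an SD above 0.25, 5 rose without the livers that stood apart, and 4 rose with the array median as a covariate. The filters left fewer members; the other causes were not tested. The median GAPDH slope was -0.03, and 0.0026 among the 26. The median pairwise correlation, 0.177, was 0.414 with the brightest probe set of each gene and 0.489 with medians above 11 only, both added after seeing the data, and ran from 0.154 to 0.221 under the others. No paired analysis was possible because the labels give a single group. The floor of 4.09 limits 7 members, with 43 values at it. In the simulation, with 200 changed probe sets, correlations near 0.3 with a trait were recovered about as often as missed. Far fewer probe sets were called with the traits themselves, 30 with fat area and 0 with drip loss. The simulated rate therefore does not carry over to a lone changed probe set, which was not simulated.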
